A study of Homo sapiens with 6 samples.

Results

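The genes described here are 34 genes of the integrated stress response, the transcription factor ATF4, messages that are controlled like it, and genes that ATF4 is known to switch on. They were taken as a fixed list of symbols, and all 34 were matched by Ensembl gene identifier among the 60420 genes of the table. Of these, 5 are messages with upstream open reading frames (uORFs), 11 encode enzymes of amino acid and one-carbon metabolism, 6 encode amino acid transporters, 5 encode other transcription regulators and 7 encode other stress effectors. The cells were HEK293T, a line derived from human embryonic kidney that carries the SV40 large T antigen. They had received an inhibitor of PRMT1, an inhibitor of PRMT4 (also called CARM1) or the solvent DMSO. Both enzymes place methyl groups on arginine residues of proteins. From each of the 3 treatments, ribosome-protected fragments (footprints) and an input library were deposited, which gives 6 libraries with 1 library per group. Neither the compounds used nor their doses and times are given in the labels. The table's headers call the input libraries mRNA, whereas the sample descriptions call all 6 libraries ribosome-protected and do not say how the input was made. With no replicate library, no difference below has a replicate check, none was tested, and no p-value is given. In bulk libraries such as these, a change in RNA per cell and a change in the share of cells that carry it cannot be told apart.

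In the integrated stress response, kinases that sense lack of amino acids, misfolded protein, double-stranded RNA or lack of heme phosphorylate the initiation factor eIF2 and so lower translation of most messages. Ribosomes then pass the inhibitory upstream reading frames of a few messages, ATF4 among them, and reach their main coding sequences. ATF4 protein in turn switches on genes for amino acid synthesis, uptake and tRNA charging, and PPP1R15A brings a phosphatase back to eIF2.

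Values are TPM, a level per gene that is scaled for transcript length and to a fixed total per library, so the number of reads behind each value is unknown. Comparisons are log2 ratios of TPM + 1, centred on the median of the 9040 genes whose mean over the 6 libraries was at least 5 TPM, of which 8117 are protein-coding. Of the 34 genes, 26 passed that filter and 8 did not. A gene is counted as 2-fold higher or lower when its log2 ratio was at least 1 in size. Protein-coding genes held between 62.3% and 74.3% of the footprint TPM and between 33.4% and 45.7% of the input TPM. Of 7 markers known from HEK293T cells, 4 stood at 1 TPM or more in every library, whereas NEFM, CDH2 and PAX2 did not. Of 7 markers of other cell types, 5 stayed under 1 TPM in every library, with the hemoglobin gene HBB at 0 TPM throughout. The fibroblast marker COL1A1 stood between 1.97 and 3.82 TPM, and the hepatocyte marker APOA1 reached 1.1 TPM.

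The footprint ratio of each inhibitor to DMSO correlated more closely with the input ratio of the other inhibitor than with that of its own label. Over the 9040 genes, the footprint ratio of the PRMT1 inhibitor to DMSO had a Pearson correlation of 0.26 with the input ratio of the same inhibitor and of 0.45 with the input ratio of the PRMT4 inhibitor. The footprint ratio of the PRMT4 inhibitor had a correlation of 0.21 with its own input ratio and of 0.32 with that of the PRMT1 inhibitor. These 4 ratios share the DMSO libraries, whereas the ratio of the PRMT1 to the PRMT4 inhibitor does not, and there footprints and input had a correlation of -0.31. The heme oxygenase gene HMOX1, a stress gene outside the list, had 642 TPM in footprints labelled PRMT1 inhibitor, 93.9 TPM in those labelled PRMT4 inhibitor and 33.0 TPM in those of DMSO. In the input, HMOX1 had 21.6 TPM in the library labelled PRMT1 inhibitor, 157 TPM in the library labelled PRMT4 inhibitor and 7.53 TPM in DMSO. Whether these opposite directions lie in the cells or in the labelling of libraries cannot be told apart here, so libraries are named by their labels, and the footprint over input ratios of the inhibitors are also given with the 2 inhibitor inputs exchanged.

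ATF4 binds DNA together with C/EBP partner proteins at a composite element whose core is often written TGATGNAA, so the promoters of the 34 genes were searched for these letters on both strands. RefSeq promoters of build GRCh38.p14, covering 250 bases before to 50 bases after a gene's start, were listed for 28 of the 34 genes. The letters occurred in the promoters of 10 of those 28 genes (35.7%), against 4.46% of 27305 genes in the whole table. Counted by promoter, they occurred in 10 of 47 (21.3%), against 3.62% of 35116 promoters in the whole table. They occurred in 4 of 6 transporter genes, 3 of 4 other transcription regulators, 1 of 5 uORF messages, 1 of 7 enzyme genes and 1 of 6 other effectors. Several of these genes are known as ATF4 targets through such elements, so the share describes the list and is no finding about the inhibitors. The 7 matches that lie wholly before the start are printed with up to 25 bases on each side, to show the letters that link part of the list to ATF4 in their surroundings. They lie at chr7:97872444-97872501 on the minus strand for ASNS, chr19:33374046-33374103 on the plus strand for CEBPG, chr14:75427981-75428021 on the plus strand for JDP2, chr19:46784879-46784936 on the minus strand for SLC1A5, chr1:212565191-212565248 on the plus strand for ATF3, chr15:40953237-40953294 on the plus strand for CHAC1 and chr1:204412012-204412067 on the minus strand for PPP1R15B. Each is printed 5′ to 3′ on the strand of its gene, and the capitals mark the matched letters, which for CHAC1 are the reverse complement.
ASNS: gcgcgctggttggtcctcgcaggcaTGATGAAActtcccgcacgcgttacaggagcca
CEBPG: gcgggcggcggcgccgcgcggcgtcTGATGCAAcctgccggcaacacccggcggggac
JDP2: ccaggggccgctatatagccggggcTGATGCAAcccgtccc
SLC1A5: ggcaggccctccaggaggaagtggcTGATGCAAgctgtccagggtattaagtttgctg
ATF3: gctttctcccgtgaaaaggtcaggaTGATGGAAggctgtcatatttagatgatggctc
CHAC1: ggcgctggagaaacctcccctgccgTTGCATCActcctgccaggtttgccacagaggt
PPP1R15B: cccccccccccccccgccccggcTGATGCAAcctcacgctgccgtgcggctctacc
CEBPG, JDP2, SLC1A5 and PPP1R15B carry the same 8 letters TGATGCAA, and CHAC1 carries them on the opposite strand. In SLC1A4, SLC3A2 and SLC7A1 the letters reach the start site or lie after it. A match is a run of letters and not a measured binding site, and no binding data belong to the series.

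The leaders of the messages, the stretch before the coding sequence, were read from 1 GENCODE 29 transcript per gene. Where the annotation ranked several transcripts alike, the longest was taken. The ATF4 leader of 882 bases held 7 upstream AUG codons, of which 2 open a reading frame that overlaps the coding sequence out of frame. ATF5 held 2 upstream AUGs and DDIT3 held 3, with 1 overlapping frame in each, and PPP1R15A and PPP1R15B held 2 each, all closed before the start. Upstream AUGs were not restricted to these 5 messages, since 20 of the 26 genes past the filter (76.9%) had at least 1, against 4035 of 7954 protein-coding genes compared (50.7%). Without the 5 uORF messages it was 15 of 21 (71.4%), and over all 34 genes 61.8%. The leaders of the 26 genes were also longer, with a median of 378.5 bases against 190 bases over the genes compared. Outside the uORF group, STC2 had 11 upstream AUGs in a leader of 1310 bases and PHGDH had 10 in 833 bases. The deposited table holds 1 value per gene, so footprints on an upstream reading frame and on the coding sequence of the same message cannot be told apart.

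Within the DMSO libraries, footprints over input of the 26 genes past the filter ranged from -2.11 to 3.54 (log2). Of these, 3 were at least 2-fold above the median gene and 5 at least 2-fold below it, against 16.4% and 19.0% of the 9040 genes. These counts do not set the list apart from other genes. ATF5, a relative of ATF4, stood highest, with 38.7 TPM in footprints and 2.22 TPM in input, a log2 ratio of 3.54. Its input lay under 5 TPM in every treatment, so it passed the filter on the mean only through its footprints. Passing in that way favours a high ratio. With a pseudocount of 5 the ratio of ATF5 was 2.53, and rescaled to protein-coding genes it was 3.18. PHGDH, which starts serine synthesis, had 220 TPM in footprints and 88.6 TPM in input (1.21), and SHMT2, the mitochondrial enzyme that splits serine into glycine and a one-carbon unit, had 125 and 50.9 TPM (1.19). All 3 therefore had more TPM in footprints than in input, although rescaled to protein-coding genes PHGDH (0.60) and SHMT2 (0.59) were under 2-fold.
At the low end, XPOT, the exporter of tRNA from the nucleus, had 24.8 TPM in footprints and 96.9 TPM in input (-2.01). CBS, which joins serine and homocysteine, had 16.2 TPM in footprints and 69.2 TPM in input (-2.11). A second annotated copy of CBS, CBSL, shares its sequence and reads can be split between them, and with both copies summed the ratio was -1.26. The others at least 2-fold below the median were CEBPG (-1.40), VEGFA (-1.30) and PPP1R15B (-1.08), the last of which was -0.99 uncentred and so lost its call. ATF4 itself lay close to the median gene at 0.24, with 457 TPM in footprints and 365 TPM in input. The uORF messages DDIT3 (-0.44), PPP1R15A (-0.79) and PPP1R15B lay below the median gene. PPP1R15A footprints lay under 5 TPM in every treatment, so it passed the filter only through its input, which favours a low ratio. The ratio differed with level, however. Protein-coding genes with a mean of at least 100 TPM had a median of 0.90 and quartiles of 0.35 and 1.48. ATF4 thus lay below the lower quartile at its level, and PHGDH between the quartiles. From 5 to 20 TPM the median was -0.34, with quartiles of -1.01 and 0.27. DDIT3 and PPP1R15A lay between these, and PPP1R15B just below. The 5 uORF messages thus held both the highest ratio of the 26 genes and ratios in the lower part of the range. Over the 7954 protein-coding genes compared that had a leader, the median ratio was -0.14 for the 4035 messages with an upstream AUG and 0.14 for the 3919 without one.

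**Figure D1:**
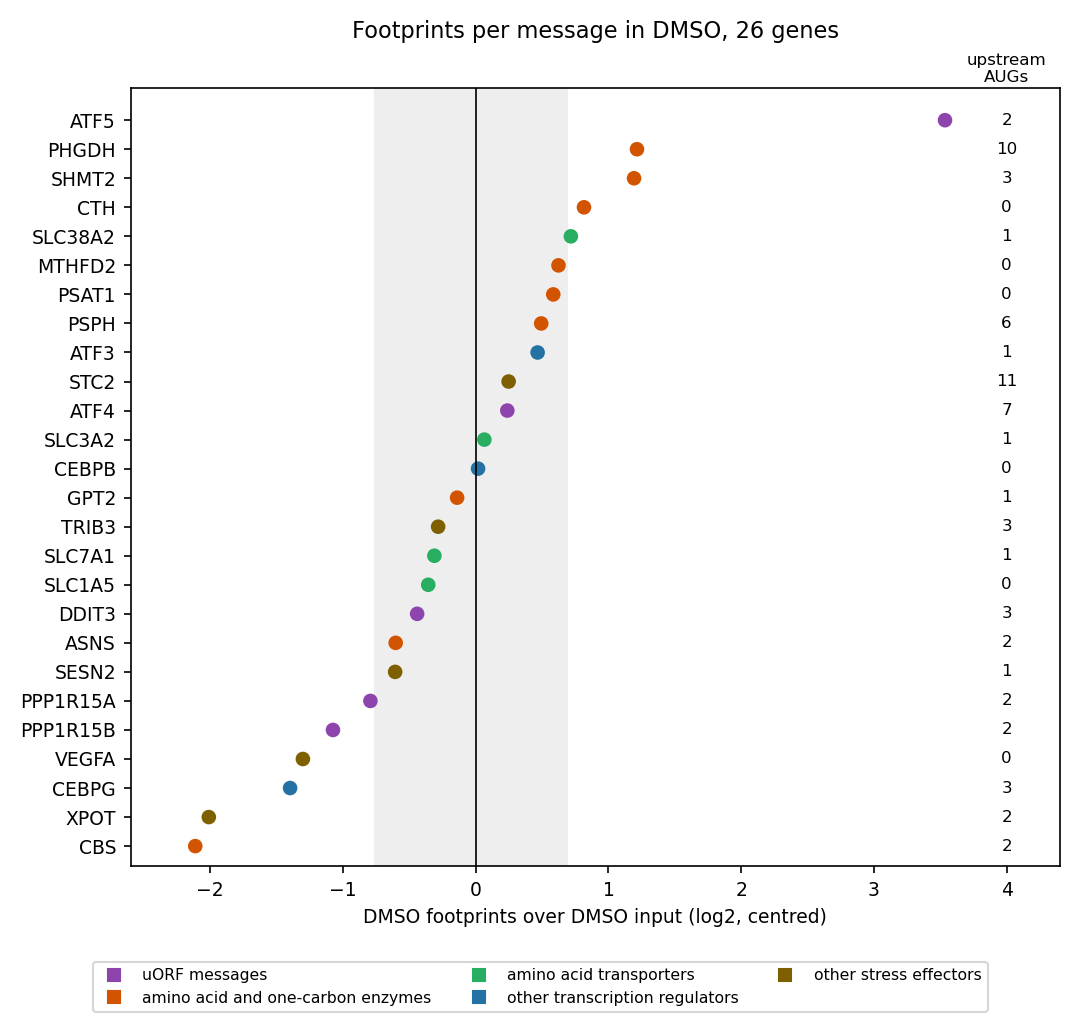
Ratio of footprints to input in the DMSO libraries (log2, centred on the 9040 genes compared), 1 point for each of the 26 genes past the filter, ordered by value and coloured by group. The grey band holds the middle 50% of all genes compared, and the column at the right gives the number of upstream AUGs. ATF5, which passed the filter only through its footprints, lies at 3.54, apart from all other genes of the list, and CBS and XPOT lie lowest. PPP1R15A passed the filter only through its input.

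ATF4 was the highest of the 34 genes in all 6 libraries, between 366 and 509 TPM in footprints and between 255 and 374 TPM in input. PHGDH, SHMT2 and MTHFD2 came next in the footprints of every treatment, all between 93.6 and 220 TPM. In the input libraries, XPOT, SLC3A2, CBS, PHGDH, MTHFD2 and PSPH stood between 41.4 and 96.9 TPM. The lowest genes by their mean over the 6 libraries were SLC1A4, NUPR1 and VLDLR, none of them above 3.31 TPM in any library. Summed over the 34 genes, footprints held 1540 TPM in the library labelled PRMT1 inhibitor, 1165 TPM in that labelled PRMT4 inhibitor and 1445 TPM in DMSO. The input sums were 832 TPM in the library labelled PRMT1 inhibitor, 1120 TPM in that labelled PRMT4 inhibitor and 1148 TPM in DMSO. The lowest sum thus lay with the PRMT4 label in footprints and with the PRMT1 label in input.

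**Figure D2:**
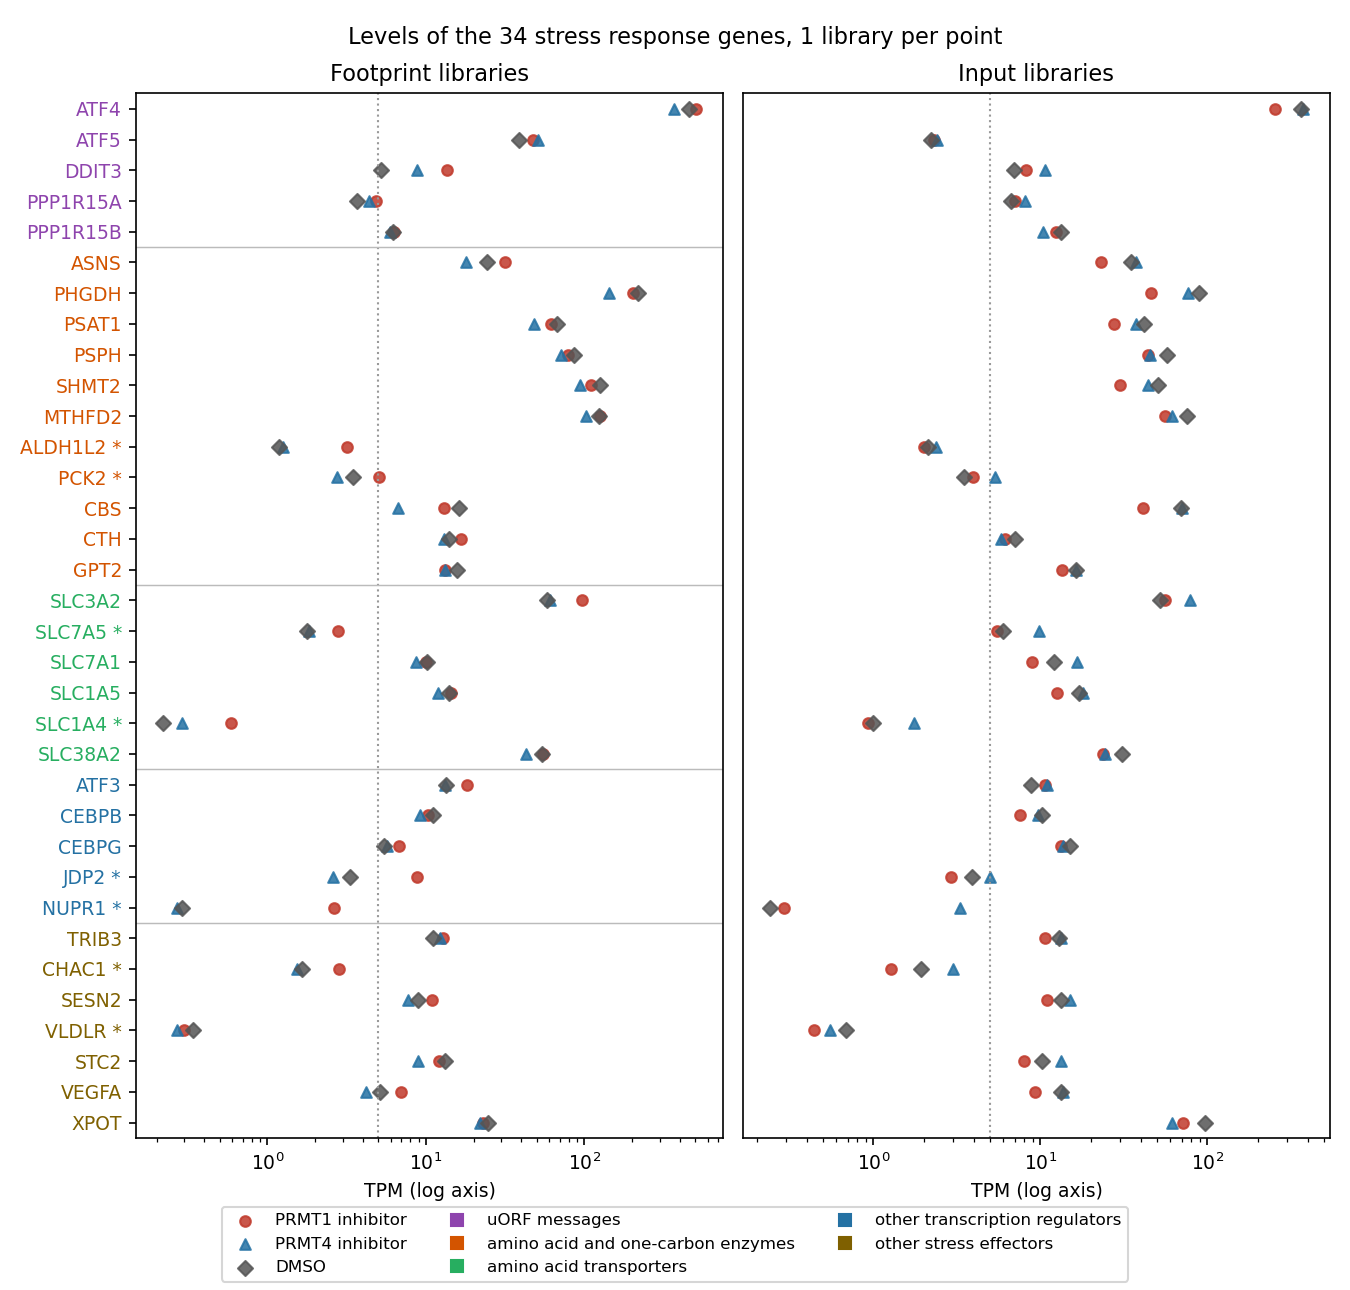
TPM of the 34 genes (log axis) in the 3 footprint libraries and the 3 input libraries, 1 point per gene and library, with the library label as symbol and the group of the gene as colour. The dotted line marks 5 TPM, and an asterisk marks a gene under the filter on the mean. ATF4 lies highest in every library, and the PRMT1 label lies above the PRMT4 label for most genes in footprints and below it for most genes in input.

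Set against DMSO, the genes of the response stood slightly higher in the footprints labelled PRMT1 inhibitor and slightly lower in those labelled PRMT4 inhibitor. With the PRMT1 label, 23 of the 26 genes past the filter were above the median gene, with a median log2 ratio of 0.18. That median was 0.04 with 16 genes above 0 when ratios were left uncentred, and 0.28 with 25 genes above 0 when TPM were rescaled to protein-coding genes. DDIT3 was the 1 gene at least 2-fold higher (0.97 with a pseudocount of 5), against 3.25% of the 9040 genes, and none was 2-fold lower, against 0.575%. With the PRMT4 label, 20 of the 26 genes were below the median gene in footprints, with a median of -0.21, and -0.21 uncentred. CBS was the 1 gene at least 2-fold lower (-0.86 with a pseudocount of 5 and -0.74 with CBSL summed in), against 0.254% of all genes compared. None was 2-fold higher, against 0.642%. By construction the median over all genes compared was 0 and 50.0% of them lay above it.

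In the input the directions were turned round. With the PRMT1 label, 19 of the 26 genes were below the median gene, with a median of -0.22 (-0.38 uncentred and -0.15 rescaled), and none was 2-fold higher or lower, against 0.619% and 0.199% of all genes compared. With the PRMT4 label, 25 of the 26 genes were above the median gene with a median of 0.40, but uncentred 15 were above 0 with a median of 0.03, since all 9040 genes had an uncentred median of -0.37 in that comparison. Again none was 2-fold higher or lower, against 1.98% and 0.465%. XPOT was the gene below the median gene there, with a ratio of -0.28 in both inputs. Whether the list stands apart from other genes was not tested.

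**Figure D3:**
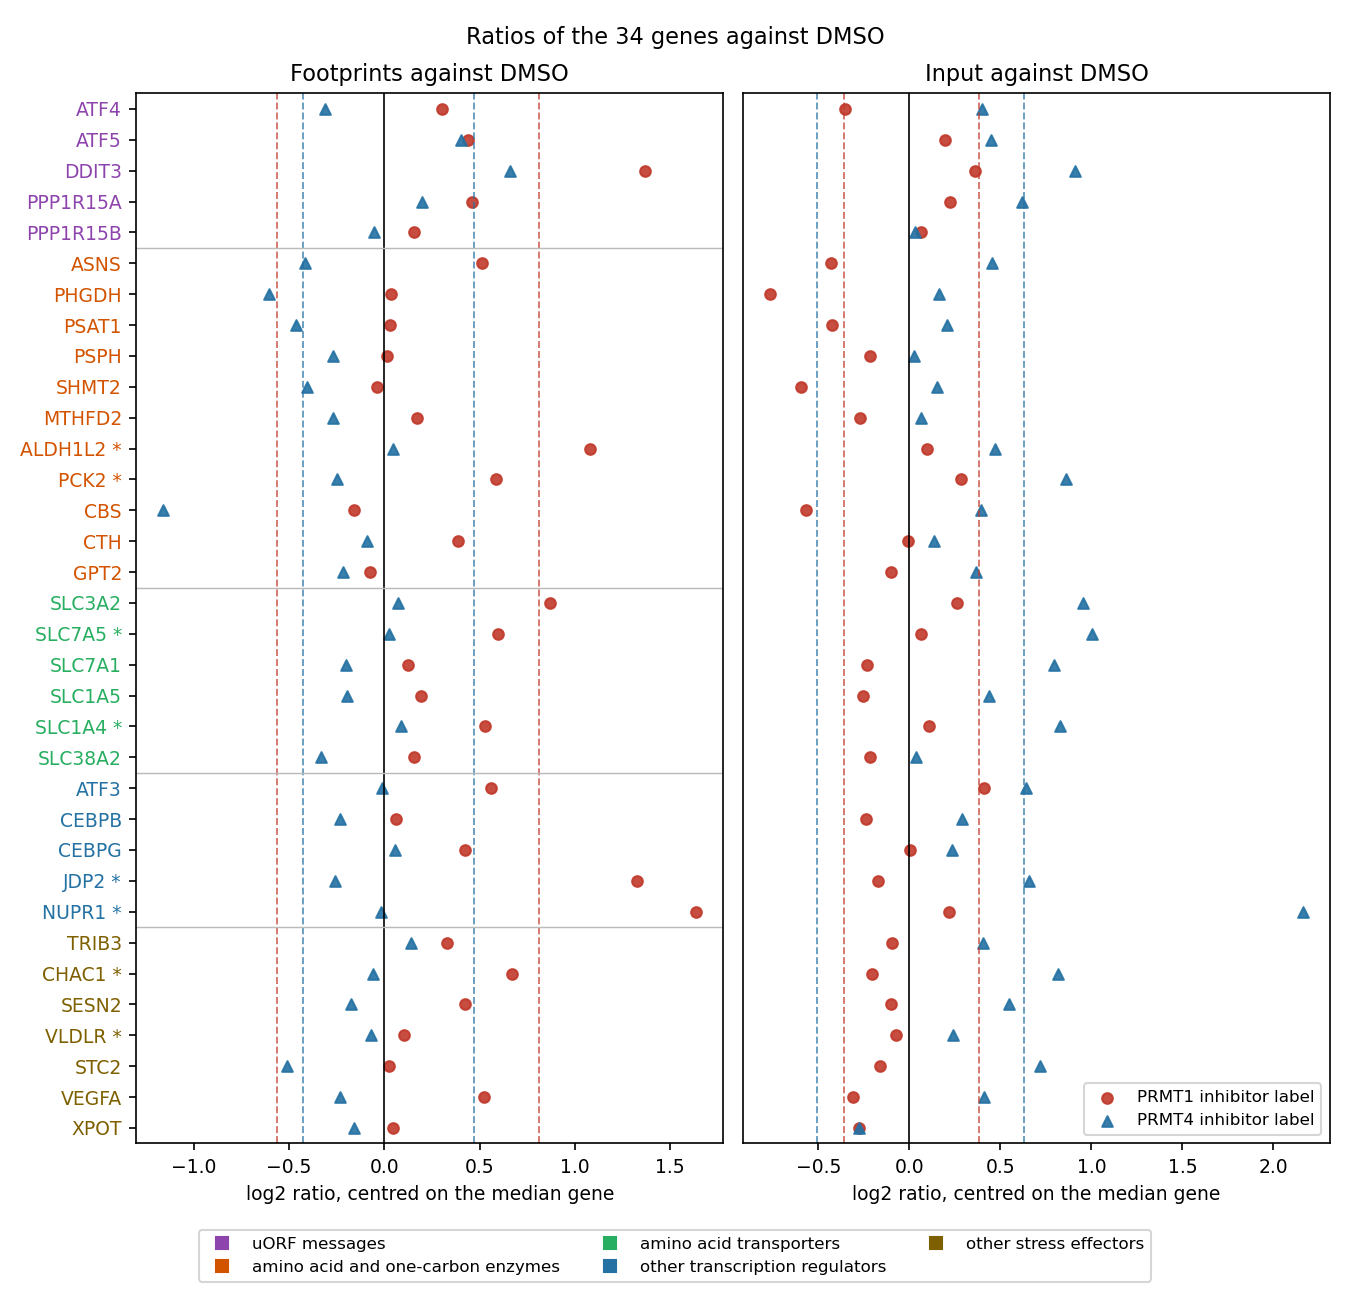
Log2 ratios to DMSO (centred) of the 34 genes in footprints and in input, 1 point per gene and inhibitor label, with an asterisk for a gene under the filter. Dashed lines in the colour of each label enclose the middle 90% of all 9040 genes compared. In footprints most genes lie to the right with the PRMT1 label and to the left with the PRMT4 label; in input most lie to the left with the PRMT1 label and to the right with the PRMT4 label, the last of which holds for 25 of 26 genes centred and 15 of 26 uncentred.

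Among the uORF messages, DDIT3, which encodes the pro-apoptotic factor CHOP, had the widest ratio. DDIT3 (ENSG00000175197) had 13.6 TPM in footprints labelled PRMT1 inhibitor, 8.80 TPM in those labelled PRMT4 inhibitor and 5.24 TPM in DMSO, log2 ratios of 1.37 and 0.66. Its input had 8.18 TPM with the PRMT1 label, 10.7 TPM with the PRMT4 label and 6.98 TPM in DMSO, ratios of 0.36 and 0.91. DDIT3 was thus above DMSO in all 4 inhibitor libraries, and more so in the PRMT1 label for footprints and in the PRMT4 label for input. ATF4 (ENSG00000128272) had 509 TPM in footprints labelled PRMT1 inhibitor, 366 TPM in those labelled PRMT4 inhibitor and 457 TPM in DMSO, ratios of 0.30 and -0.31. Its input had 255 TPM with the PRMT1 label, 374 TPM with the PRMT4 label and 365 TPM in DMSO, ratios of -0.35 and 0.40. For ATF4 the labelled libraries therefore lay on opposite sides of DMSO, and the input of the PRMT4 label was close to DMSO in TPM itself. ATF4 processed pseudogenes took at most 0.31 TPM each.

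ATF5 footprints stood at 47.7 TPM with the PRMT1 label, 51.1 TPM with the PRMT4 label and 38.7 TPM in DMSO. Its input held 2.31, 2.41 and 2.22 TPM in the same order of labels, so footprints exceeded input by a wide margin in all 3 treatments. PPP1R15A, the stress-induced subunit that directs a phosphatase to eIF2, had 4.83 TPM in footprints with the PRMT1 label, 4.35 TPM with the PRMT4 label and 3.68 TPM in DMSO. Its input held 7.0, 8.11 and 6.64 TPM. In TPM, both inhibitor libraries of PPP1R15A were above DMSO in either kind of library. Its centred log2 ratios were 0.46 and 0.20 in footprints and 0.23 and 0.62 in input. Uncentred they were 0.32 and 0.19 in footprints and 0.07 and 0.25 in input. PPP1R15B, the constitutive counterpart, had 6.26, 5.92 and 6.21 TPM in footprints and 12.4, 10.4 and 13.3 TPM in input. Its centred ratios were 0.16 and -0.05 in footprints and 0.07 and 0.03 in input. Uncentred, PPP1R15B was at 0.01 and -0.06 in footprints and at -0.09 and -0.33 in input. All 5 uORF messages were above the median gene in footprints labelled PRMT1 inhibitor (median 0.44) and in input labelled PRMT4 inhibitor (median 0.45, or 0.08 with 4 of 5 above 0 uncentred).

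The other transcription regulators past the filter were ATF3, CEBPB and CEBPG, leucine zipper proteins that can pair with ATF4 or act after it. ATF3 had 18.2 TPM in footprints labelled PRMT1 inhibitor, 13.2 TPM in those labelled PRMT4 inhibitor and 13.4 TPM in DMSO, ratios of 0.56 and -0.01. Its input had 10.7 TPM with the PRMT1 label, 10.9 TPM with the PRMT4 label and 8.83 TPM in DMSO, ratios of 0.41 and 0.64. ATF3 was thus the regulator with both inputs above DMSO on each scaling. CEBPB had 10.4, 9.21 and 11.1 TPM in footprints and 7.51, 9.64 and 10.2 TPM in input, and CEBPG had 6.78, 5.65 and 5.42 TPM in footprints and 13.3, 13.6 and 14.9 TPM in input, in the order PRMT1 label, PRMT4 label and DMSO. For both, footprints of the PRMT1 label were above those of the PRMT4 label.

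Among the enzymes of amino acid synthesis and one-carbon metabolism, all 9 enzyme genes past the filter were below the median gene in the input labelled PRMT1 inhibitor (median -0.42), and all 9 were below it in the footprints labelled PRMT4 inhibitor (median -0.41). In the input labelled PRMT4 inhibitor all 9 were above the median gene (median 0.16), but uncentred 3 of 9 were above DMSO with a median of -0.20. In the footprints labelled PRMT1 inhibitor their median was 0.03, and -0.11 uncentred, so no direction is given there. ASNS (ENSG00000070669), asparagine synthetase and a standard reporter of ATF4 activity, had 31.6 TPM in footprints labelled PRMT1 inhibitor, 17.8 TPM in those labelled PRMT4 inhibitor and 24.2 TPM in DMSO. Its input had 23.0 TPM with the PRMT1 label, 37.3 TPM with the PRMT4 label and 35.1 TPM in DMSO. The ratios of ASNS were 0.52 and -0.42 in footprints and -0.43 and 0.45 in input, so its order in footprints was the reverse of that in input.

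PHGDH (ENSG00000092621) had 203 TPM in footprints labelled PRMT1 inhibitor, 144 TPM in those labelled PRMT4 inhibitor and 220 TPM in DMSO. Its input had 46.2 TPM with the PRMT1 label, 76.9 TPM with the PRMT4 label and 88.6 TPM in DMSO. At -0.77, the PRMT1 label input ratio of PHGDH was the lowest of the 26 genes in that comparison. PSAT1, the transaminase that follows PHGDH in serine synthesis, had 62.1, 48.4 and 67.3 TPM in footprints and 27.7, 37.5 and 41.9 TPM in input, in the order PRMT1 label, PRMT4 label and DMSO. PSPH, the phosphatase of the last step, had 78.9, 71.3 and 86.5 TPM in footprints and 44.1, 45.3 and 57.5 TPM in input. All 3 serine synthesis genes were thus lowest with the PRMT4 label in footprints and with the PRMT1 label in input. SHMT2 had 110, 93.6 and 125 TPM in footprints and 29.8, 43.9 and 50.9 TPM in input. MTHFD2, the mitochondrial one-carbon enzyme that follows SHMT2, had 126, 102 and 124 TPM in footprints and 55.7, 61.0 and 75.3 TPM in input. In both enzymes the PRMT4 label was lowest in footprints and the PRMT1 label lowest in input. In TPM as deposited, all these enzymes except ASNS were below DMSO in both inputs.

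CBS (ENSG00000160200) had 12.9 TPM in footprints labelled PRMT1 inhibitor, 6.67 TPM in those labelled PRMT4 inhibitor and 16.2 TPM in DMSO, ratios of -0.16 and -1.16. Its input had 41.4 TPM with the PRMT1 label, 70.5 TPM with the PRMT4 label and 69.2 TPM in DMSO. The copy CBSL held more, with 62.8 TPM in footprints labelled PRMT1 inhibitor, 43.4 TPM in those labelled PRMT4 inhibitor and 68.2 TPM in DMSO, and 60.9, 83.5 and 122 TPM in input. With CBSL summed in, an analysis added after the values were seen, the footprint ratio of the PRMT4 label was -0.74 and no longer 2-fold, so that call rests on how reads were split between the copies. It was also lost with a pseudocount of 5, at -0.86. CTH, which makes cysteine after CBS, had 16.7, 12.98 and 14.0 TPM in footprints and 6.14, 5.83 and 7.01 TPM in input. GPT2, the mitochondrial alanine transaminase, had 13.3, 13.3 and 15.7 TPM in footprints and 13.4, 16.3 and 16.3 TPM in input. For both enzymes the centred ratios to DMSO stayed within 0.39 of the median gene in either kind of library.

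Of the 4 transporters past the filter, SLC3A2, the heavy chain shared by several amino acid exchangers, had the widest ratios to DMSO. SLC3A2 (ENSG00000168003) had 96.5 TPM in footprints labelled PRMT1 inhibitor, 60.7 TPM in those labelled PRMT4 inhibitor and 57.9 TPM in DMSO, ratios of 0.87 and 0.07. Its input had 56.0 TPM with the PRMT1 label, 78.8 TPM with the PRMT4 label and 52.1 TPM in DMSO, ratios of 0.26 and 0.95. As for DDIT3, SLC3A2 stood highest in the PRMT1 label for footprints and in the PRMT4 label for input. SLC7A1, a carrier of cationic amino acids, had 9.97, 8.66 and 10.1 TPM in footprints and 8.94, 16.5 and 12.0 TPM in input. SLC1A5, a glutamine carrier, had 14.4, 12.0 and 13.9 TPM in footprints and 12.5, 18.0 and 17.0 TPM in input. SLC38A2, the amino acid carrier induced by starvation, had 54.9, 42.9 and 54.5 TPM in footprints and 23.5, 24.3 and 30.8 TPM in input. In these 3 transporters the footprints of the PRMT1 label and of DMSO were close, and those of the PRMT4 label were lowest.

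Among the other effectors, TRIB3, a pseudokinase that feeds back on ATF4 and CHOP, had 12.8, 12.3 and 11.1 TPM in footprints and 10.6, 13.3 and 12.9 TPM in input, in the order PRMT1 label, PRMT4 label and DMSO. SESN2, a leucine-binding inhibitor of mTORC1, had 11.0, 7.76 and 8.92 TPM in footprints and 10.9, 15.1 and 13.2 TPM in input. VEGFA, the vascular growth factor, had 6.98, 4.21 and 5.14 TPM in footprints and 9.31, 13.7 and 13.3 TPM in input. SESN2 and VEGFA thus had the same order as ASNS, with the PRMT1 label highest in footprints and lowest in input. STC2, a secreted glycoprotein, had 12.0, 8.88 and 13.2 TPM in footprints and 8.0, 13.3 and 10.2 TPM in input. XPOT had 23.1, 21.97 and 24.8 TPM in footprints and 71.3, 61.6 and 96.9 TPM in input, and was the effector with its lowest input in the PRMT4 label.

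Compared directly, with no DMSO library involved, footprints of the PRMT1 label were above those of the PRMT4 label for all 26 genes past the filter, with a median of 0.47 (25 genes and 0.32 uncentred). CBS was the 1 gene at least 2-fold higher, at 1.01, against 3.12% of all genes compared, and with CBSL summed in its ratio was 0.74; none was 2-fold lower, against 0.442%. Input of the PRMT1 label was below that of the PRMT4 label for 24 of the 26 genes, with a median of -0.52 (23 genes and -0.33 uncentred). SLC7A1 was the 1 gene at least 2-fold lower, at -1.01, against 1.03%, and none was 2-fold higher, against 0.664%. That call was lost uncentred (-0.82), with lower filters (-0.97 and -0.83) and with a pseudocount of 5 (-0.78). The call of CBS in footprints was likewise lost uncentred (0.86), with lower filters (0.95 and 0.86) and with a pseudocount of 5 (0.74). The combination of lower input and higher footprints held for 24 of 26 genes (92.3%), against 2888 of 9040 genes compared (31.9%). PPP1R15B and XPOT, the other two, had input ratios of 0.05 and 0.02. ATF5, at 0.05, had the smallest footprint difference of the 26 genes, and its input ratio was -0.23. No test of the list against other genes was made, and the genes are not independent of each other.

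**Figure D4:**
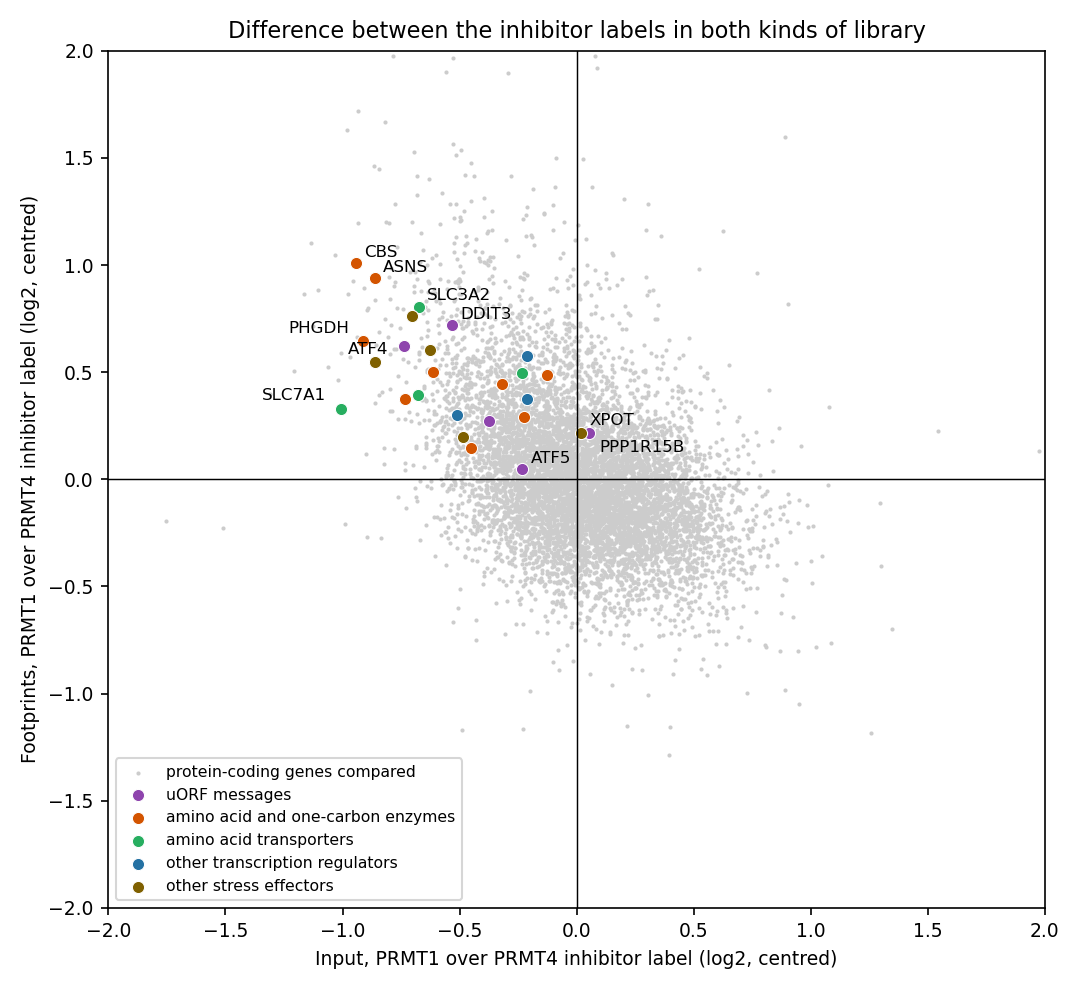
Log2 ratio of the PRMT1 to the PRMT4 inhibitor label (centred), in input on the horizontal axis and in footprints on the vertical axis, 1 point per gene; grey points are the other protein-coding genes compared and colours mark the groups of the 26 genes past the filter. The listed genes lie in the upper left, 24 of 26 with lower input and higher footprints, except PPP1R15B and XPOT just right of 0 in input.

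Footprints over input put these differences together. The ratio is read as ribosome occupancy per message only if the input is total mRNA, which the labels leave unclear. With each footprint library divided by the input of the same label and set against DMSO, all 26 genes were above the median gene for the PRMT1 label, with a median of 0.41 (0.43 uncentred). DDIT3 (1.01) was the 1 gene at least 2-fold higher, against 3.19% of all genes compared, followed by ASNS (0.94), VEGFA (0.83), PHGDH (0.80) and ATF4 (0.65); none was 2-fold lower, against 0.929%. For the PRMT4 label, 25 of the 26 genes were below the median gene with a median of -0.58, and uncentred 17 were below 0 with a median of -0.21. CBS (-1.57), STC2 (-1.24) and SLC7A1 (-1.01) were at least 2-fold lower, against 2.13%, and none was 2-fold higher, against 0.808%. XPOT was the exception at 0.11. The calls of STC2 and SLC7A1 rest on the setting, since uncentred they were -0.87 and -0.64 and with a pseudocount of 5 they were -0.94 and -0.78. CBS was at -0.80 with CBSL summed in. The call of DDIT3 for the PRMT1 label was lost with a pseudocount of 5, at 0.71.

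With the 2 inhibitor inputs exchanged, most of this difference was gone. The PRMT1 label footprints over the other inhibitor's input gave 9 genes above and 17 below the median gene, with a median of -0.10, but uncentred 20 were above 0 and 6 below, with a median of 0.14. The PRMT4 label footprints gave 12 above and 14 below, with a median of -0.01, but uncentred 22 were above 0 and 4 below, with a median of 0.16. No gene past the filter was 2-fold higher or lower in either exchanged ratio, against 2.01% and 1.23% of all genes compared for the PRMT1 label and 0.631% and 0.885% for the PRMT4 label. ATF4 was at 0.65 and -0.73 for the PRMT1 and PRMT4 labels with its own inputs, and at -0.12 and 0.03 with the inputs exchanged. DDIT3 was at 1.01 and -0.27 with its own inputs, and at 0.44 and 0.29 with the inputs exchanged. ASNS was at 0.94 and -0.88 with its own inputs, and at 0.05 and 0.00 with the inputs exchanged. DDIT3 was thus above 0 for both labels after the exchange, whereas ATF4 and ASNS lay near 0.
The ratio came nearer to 0 for 21 of 26 genes with the PRMT1 label and for 22 of 26 with the PRMT4 label, against 52.8% and 65.1% of all genes compared. These counts largely restate the opposite directions of input and footprints between the labels, and are no separate observation. CBS had ratios of -0.57 and -0.60 for the PRMT1 and PRMT4 labels with exchanged inputs, the lowest of the 26 genes for the PRMT4 label, but with CBSL summed in they were -0.08 and -0.01. STC2 (-0.71) and SLC7A1 (-0.69) were lowest for the PRMT1 label. On the centred scale, the direction of footprints over input of the 26 genes as a set is therefore not given without knowing which input belongs to which footprints. Uncentred, 26 genes were above 0 for the PRMT1 label with its own input and 20 with the exchanged input. For the PRMT4 label these uncentred counts were 9 and 22, so the direction there differed with the input used.

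**Figure D5:**
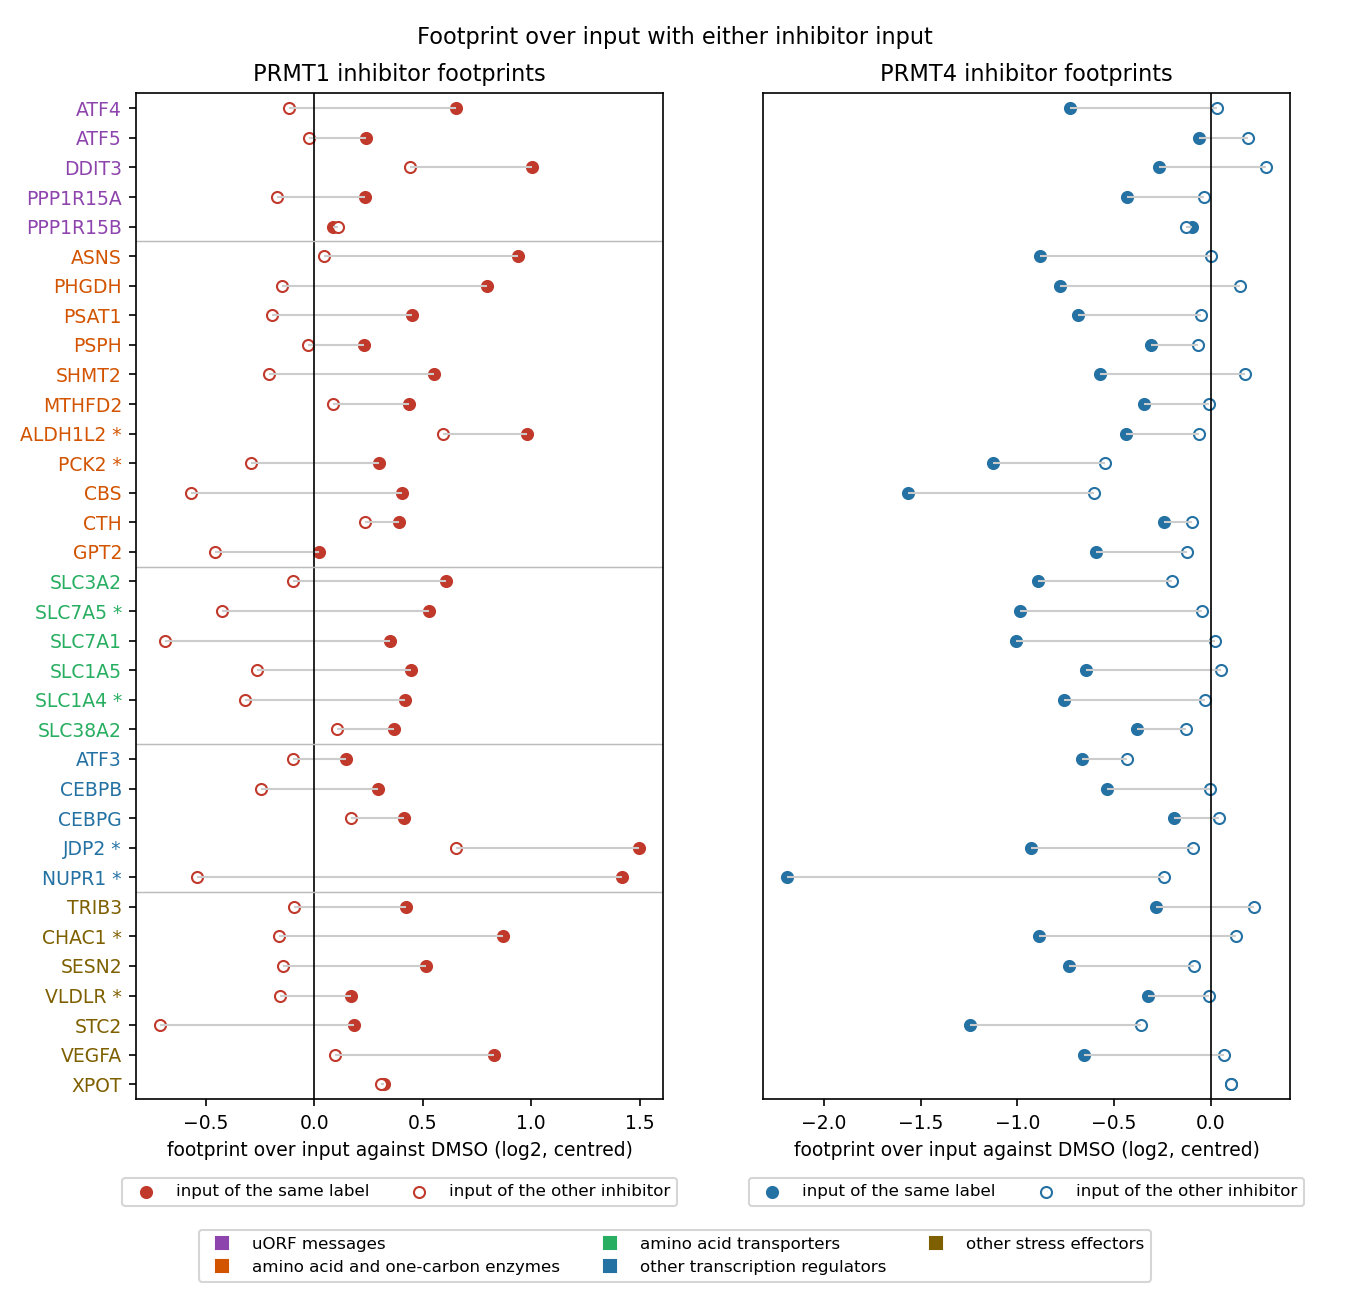
Footprints over input against DMSO (log2, centred) for the 34 genes, with footprints of the PRMT1 label in 1 panel and of the PRMT4 label in the other; filled points use the input of the same label and open points the input of the other inhibitor, and an asterisk marks a gene under the filter. Filled points lie right of 0 for the PRMT1 label and, XPOT apart, left of 0 for the PRMT4 label (17 of 26 uncentred), and open points scatter around 0.

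The 8 genes under the filter had low levels, and their ratios rest on few TPM. NUPR1, a small stress-induced chromatin protein, had 2.63 TPM in footprints labelled PRMT1 inhibitor, 0.27 TPM in those labelled PRMT4 inhibitor and 0.29 TPM in DMSO. Its input had 0.29 TPM with the PRMT1 label, 3.31 TPM with the PRMT4 label and 0.24 TPM in DMSO. NUPR1 was thus highest in the same libraries as HMOX1, the PRMT1 label for footprints and the PRMT4 label for input. JDP2, a leucine zipper regulator, had 8.80, 2.60 and 3.32 TPM in footprints and 2.90, 5.02 and 3.91 TPM in input, in the order PRMT1 label, PRMT4 label and DMSO. ALDH1L2, a mitochondrial folate enzyme, had 3.19, 1.25 and 1.19 TPM in footprints and 2.0, 2.37 and 2.13 TPM in input. CHAC1, which degrades glutathione, had 2.83, 1.54 and 1.66 TPM in footprints and 1.28, 3.0 and 1.93 TPM in input. All 4 genes were highest in the PRMT1 label for footprints and in the PRMT4 label for input.
PCK2, the mitochondrial form of phosphoenolpyruvate carboxykinase, had 5.09, 2.76 and 3.49 TPM in footprints and 3.92, 5.36 and 3.51 TPM in input. SLC1A4, a carrier of small neutral amino acids, had 0.59, 0.29 and 0.22 TPM in footprints and 0.93, 1.76 and 1.0 TPM in input. SLC7A5, the light chain that pairs with SLC3A2, had 2.81, 1.83 and 1.79 TPM in footprints and 5.48, 9.78 and 5.93 TPM in input, and its value is uncertain because pseudogenes of near-identical sequence stood at like levels. VLDLR, a lipoprotein receptor, was at most 0.69 TPM in any library. All 8 of these genes were higher with the PRMT1 label than with the PRMT4 label in footprints, and lower in input.

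Further genes of the pathway were set beside the 34. Of 16 further ATF4 targets, 11 passed the filter, and with ratios of the PRMT1 to the PRMT4 label all 11 were higher in footprints (median 0.45) and all 11 were lower in input (median -0.53). Of all genes compared, 31.9% had this combination. MAP1LC3B was higher in footprints by 0.0013 only. Uncentred, 10 of the 11 were higher in footprints (median 0.31) and 10 were lower in input (median -0.34). DDIT4, an inhibitor of mTORC1, had 41.7 TPM in footprints labelled PRMT1 inhibitor, 29.6 TPM in those labelled PRMT4 inhibitor and 55.4 TPM in DMSO, and its input had 17.0, 27.7 and 39.0 TPM in that order. DDIT4 was therefore highest in DMSO in both kinds of library. SQSTM1, an autophagy receptor, had 111, 101 and 77.3 TPM in footprints and 56.5, 67.7 and 50.1 TPM in input, with DMSO lowest in both. Against DMSO, none of the 11 was 2-fold from the median gene in footprints or input, and DDIT4 came closest at -0.99 in the input of the PRMT1 label, where 0.199% of all genes compared were 2-fold lower. Uncentred, DDIT4 was past 2-fold there, at -1.15.

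Of the sensors of the response and their partners, 6 of 7 genes passed the filter. With ratios of the PRMT1 to the PRMT4 label, 5 of the 6 were higher in footprints (median 0.17) and 2 were lower in input (median 0.16). Uncentred, 3 were higher in footprints (median 0.02) and 2 were lower in input (median 0.35). IMPACT (0.69) and DELE1 (-0.66) lay at the ends in input. GCN1, the ribosome-bound partner of the kinase GCN2, had 4.19 TPM in footprints labelled PRMT1 inhibitor, 2.20 TPM in those labelled PRMT4 inhibitor and 2.98 TPM in DMSO, and its input had 22.9, 25.3 and 25.5 TPM. GCN1 thus passed the filter on the mean only through its input. The kinase genes EIF2AK1, EIF2AK2 and EIF2AK4 stayed within 0.35 of the median gene on the log2 scale in every comparison of footprints or input with DMSO. Uncentred, however, their ratios in the input of the PRMT4 label were -0.40, -0.71 and -0.53. EIF2AK3, which encodes the kinase PERK, was under the filter, at most 3.54 TPM. Of the 8 genes for subunits of eIF2 and of its exchange factor eIF2B, 3 were above the median gene with the PRMT1 label and 5 with the PRMT4 label in footprints over input, or 5 and 8 uncentred. With the inputs exchanged, 5 were above it with the PRMT1 label and 4 with the PRMT4 label. EIF2S3 was the highest of them, at 1049 TPM in footprints labelled PRMT1 inhibitor, 908 TPM in those labelled PRMT4 inhibitor and 1030 TPM in DMSO. Of 7 other messages known for upstream reading frames, 4 were above the median gene in footprints over input with the PRMT1 label (median 0.11) and 2 with the PRMT4 label (median -0.04, or 6 of 7 and 0.33 uncentred). With the inputs exchanged, 3 were above it with the PRMT1 label (median -0.02, or 0.21 uncentred) and 5 with the PRMT4 label (median 0.08). No difference between these groups of genes was tested.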

How the data were processed

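Footprint and input libraries of 3 treatments of HEK293T cells were analysed, 1 library per group. The authors deposited 1 table of TPM per gene, a unit scaled within each library; per the submitters' processing notes the tools included cutadapt 1.18, Bowtie 1.1.2, STAR 2.4.2a and RSEM 1.2.22, with genome build GRCh37.p13. Read counts are not in the files used here, so depth and counting error are unknown. TPM from RSEM divides reads that match several copies of a gene among them, and adds footprints over the whole message, so upstream reading frames are included. No source used here says whether counting used strand, so reads of a gene and of an antisense gene cannot be told apart. All value columns were matched to a sample, with 0 columns left over.

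Of 60461 rows, 41 copies on the Y pseudoautosomal region, with a highest TPM of 0, were left out. Symbols and gene types came from GENCODE 29 and the tables given with the genome. Ratios were log2((TPM + 1)/(TPM + 1)), centred on the median of the 9040 genes with a mean of at least 5 TPM over the 6 libraries, and a gene was called at 2-fold. With 1 library per group no test was run. The computation was tested on simulated data. Python 3.11.15, numpy 2.4.6, pandas 2.3.3 and matplotlib 3.10.9 were used. Every listed gene was to be named, those past the filter with each library's value, and of the further lists up to 2 highest and 2 lowest genes per comparison. The members and lists were chosen with earlier results of these data known, and HMOX1, the kinase genes and EIF2S3 were named after their values were seen. Alternatives were pseudocounts, filters, no centring, rescaling to protein-coding genes, exchanged inhibitor inputs and, added after seeing the data, CBS summed with its copy.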

Additional observations from a re-analysis of the deposited data

Results flagged for a closer look

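The 26 genes past the filter lay on opposite sides of the median gene under the 2 inhibitor labels. In the input, their median log2 ratio to DMSO was -0.22 for the library labelled PRMT1 inhibitor and 0.40 for that labelled PRMT4 inhibitor. In footprints it was 0.18 for the PRMT1 label and -0.21 for the PRMT4 label. In footprints over input it was 0.41 for the PRMT1 label and -0.58 for the PRMT4 label. With 1 library per group these differences between the labels were not tested.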

How the results depend on the processing

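No paired analysis was possible because each group holds 1 library, and for the same reason no replicate could be left out. Over all alternatives, 38 list medians stayed within 0.1 of the reported value, and the others are given here. Of those 38, the median of footprints over input in DMSO was 0.03 uncentred, so its sign differed. Of the 2-fold calls of single genes, 71 checks kept the call, 32 lost it and 1 changed sign. DDIT3, CBS, STC2, SLC7A1, PPP1R15B, VEGFA, PHGDH and SHMT2 each lost a call under at least 1 alternative, for example at 0.71 for DDIT3 footprints over input and -0.92 for VEGFA in DMSO with a pseudocount of 5. Without centring, the median of the genes past the filter was -0.38 (PRMT1 label) and 0.0305 with 15 genes above 0 (PRMT4 label) in input, 0.0367 in footprints of the PRMT1 label, -0.21 with 9 genes above 0 in footprints over input of the PRMT4 label, and between the labels -0.33 in input and 0.32 in footprints. With exchanged inputs, footprints over input had a median of -0.10 with 9 genes above 0 for the PRMT1 label and of -0.0055 with 12 above 0 for the PRMT4 label, where SLC7A1 stood at 0.0215. Rescaled to protein-coding genes, the median was 0.28 in footprints of the PRMT1 label, and -0.65 with 6 genes above 0 for footprints over input in DMSO. A filter at a mean of 1 TPM gave 0.29 in footprints of the PRMT1 label, 0.0477 for footprints over input in DMSO, and 2 genes above 0 for footprints over input of the PRMT4 label. With no filter, medians were 0.088 in input of the PRMT4 label, -0.31 with 9 genes above 0 in footprints over input of the PRMT4 label, and -0.41 in input and 0.35 in footprints between the labels. A pseudocount of 5 gave -0.46 with 2 genes above 0 in footprints over input of the PRMT4 label and -0.39 in input between the labels. Why values moved was not tested. Depth is unknown, so the counting error of low genes such as NUPR1 cannot be given.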
